A study of Rattus norvegicus with 12 samples.

Results

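Circular RNAs (circRNAs) made from the genes of solute carriers and ATP-binding cassette (ABC) transporters were followed through rat liver libraries. A gene was taken as a member where its symbol in the deposited table began with Slc or Slco and a number, or with Abc, a letter from a to g and a number. Slc16a10 and Slc33a1 were left out, and entries named only by an Ensembl identifier were added where they carried a transcript that a member symbol also carried. That gave 146 genes, 117 solute carriers and 29 ABC genes, among 6501 host genes in the table. They held 503 circRNA entries of 21876, of which 459 were named by symbol and 44 by identifier, and 5288 of 284534 back-splice reads. The symbol rule also takes in Slc4a1ap, an adaptor protein and no carrier, with 7 reads.

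Solute carriers are membrane proteins that move ions, sugars, amino acids, nucleosides, bile salts and metabolites down or against gradients without splitting ATP themselves, and ABC transporters use ATP to export lipids, bile salts, conjugates and drugs. In the liver they load hepatocytes from portal blood, feed the mitochondria and fill the bile. An exonic circRNA forms when the end of an exon is spliced back to the start of the same or an earlier exon. A read across that junction counts the circle and not the linear messenger RNA, and a circle's level need not follow its host's. The table also lists intronic entries, with 9.13% of member reads, to which this definition does not apply. Their reads are counted among the back-splice reads here.

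All animals were wild type Wistar rats that ate a diet with 60% of calories as fat for 4 weeks and then received streptozotocin, a toxin of pancreatic beta cells, once at 35 mg/kg after a fast of 16 h. Rats whose fasting glucose exceeded 16.7 mmol/L after 3 days were operated. The 5 sham libraries came from diabetic rats after a sham operation, the 5 sleeve gastrectomy libraries from diabetic rats 3 months after removal of most of the stomach, and the 2 relapse libraries from rats in which diabetes returned after that surgery. All 3 groups thus carried the diet and the toxin, and there was no library from a rat that had never been made diabetic. The labels give no sampling time for the sham and relapse groups and do not say that each library was a separate animal, so p-values reflect only how these samples vary, which may be technical.

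The libraries held 18176 to 37229 back-splice reads each, and levels below are reads-per-million (RPM) of all back-splice reads in the library. Where a library had no read, levels up to 165 RPM remain possible in the smallest and up to 80.6 RPM in the largest, by counting error alone. Of 11 hepatocyte markers, 10 had circRNA reads and Ttr was at 0. Their summed level was 29200.5 to 42364 RPM in the sham group, 24715 to 41822 RPM after sleeve gastrectomy and 21491 to 23261 RPM in relapse, below both other groups, and what part this had in the results below was not tested. Of the hepatocyte markers 9 were tested, and 0 were called in each comparison. The lists for stellate cells, Kupffer cells and macrophages, endothelium and lymphocytes had 28, 64, 33 and 60 reads. In each of these lists relapse lay inside the ranges of both other groups. The erythroid list had 3 reads, and the 7 cholangiocyte markers and the 6 markers of pancreas and gut had 0. In whole liver, fewer cells of a type and less RNA per cell cannot be told apart.

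Transporter circles made up a small share of the circRNA pool in every group. Their share of back-splice reads averaged 1.92% ± 0.0581 (SD, n = 5) in the sham group, with 1.83, 1.91, 1.99, 1.91 and 1.94% in the libraries. After sleeve gastrectomy it averaged 1.81% ± 0.234 (SD, n = 5), with 1.79, 1.65, 2.18, 1.87 and 1.58%. The relapse libraries held 1.75 and 1.97%. The groups overlapped, and the sleeve gastrectomy libraries were the most spread, with both the highest and the lowest share. Solute carriers gave 3935 of the reads and ABC genes 1353. The ABC share ran from 0.467 to 0.562% in the sham group, from 0.373 to 0.505% after sleeve gastrectomy and was 0.503 and 0.492% in relapse. Each library showed reads for 43 to 63 of the 146 genes.

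**Figure D1:**
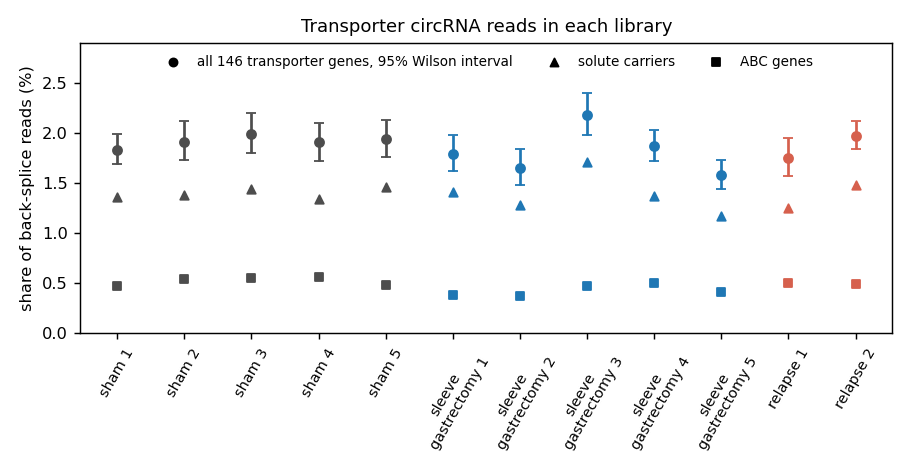
Share of all back-splice reads (%, y axis) in each of the 12 libraries (x axis) that fell on transporter hosts, with its 95% Wilson interval (counting error only), and on solute carriers and ABC genes apart. The totals lie between 1.58 and 2.18% and the 3 groups overlap.

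Few of the 146 genes carried most of the signal. The 5 most abundant hosts held 41.7% of member reads and the 10 most abundant 61.4%. At the other end 52 genes were seen in 1 library only, and 46 had 1 or 2 reads in all. Only 16 genes had reads in all 12 libraries. Reads came from 108 of the genes in the sham group, 112 in the sleeve gastrectomy group and 62 in the 2 relapse libraries. The median was 4.5 reads per member gene against 6.0 for all hosts. A filter on low counts left 31 members for testing, 23 solute carriers and 8 ABC genes, that is 21.2% of members where 21.0% of all hosts passed. These 31 held 87.8% of member reads, and the other 115 genes were not tested. Among the latter were genes whose proteins are typical of hepatocytes: Slc10a1, the sodium-dependent bile salt importer, and Slc38a3, a glutamine carrier, with 1 read each. Slc27a5, which joins bile acids and fatty acids to coenzyme A, had 6 reads, Slc22a7 had 4 and Abcc3, an exporter of conjugates to blood, had 2. These names were chosen after their values were seen.

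The 427 exonic entries spanned a median of 4 exons against 3 for all exonic entries in genes, and 33.3% held 5 or more exons against 27%. In ABC genes the median was 4 exons and 45.1% of exonic entries held 5 or more. In solute carriers the median was 3 exons and the share 27.4%, near the values of all genes. Circles of 1 exon gave 1.21% of the members' exonic reads against 9.61% in the whole table. The table lists, for entries named by symbol, as many numbers as the circle has exons, and these were read as exon positions in the transcript. Read so, 16.3% of the members' exonic symbol entries began at exon 2, against 22.1% in the table. The share was 21.5% in solute carriers and 5.97% in ABC genes. Of the reads in exonic symbol entries, those from exon 2 held 9.29% in members, against 37.1% in the table. That share of reads was 8.87% in solute carriers and 10.4% in ABC genes. No member entry began at exon 1, where 0.460% of all such entries did. The median genomic span was 6.29 kb against 5.58 kb. Many circles were variants of one another, and 275 of 424 exonic member junctions (64.9%) shared a splice site with another junction, against 58.5% in the table. Intronic entries held 9.13% of member reads and 6.80% of the reads in all genes. These are descriptions without a test, since entries of a gene are not independent.

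**Figure D2:**
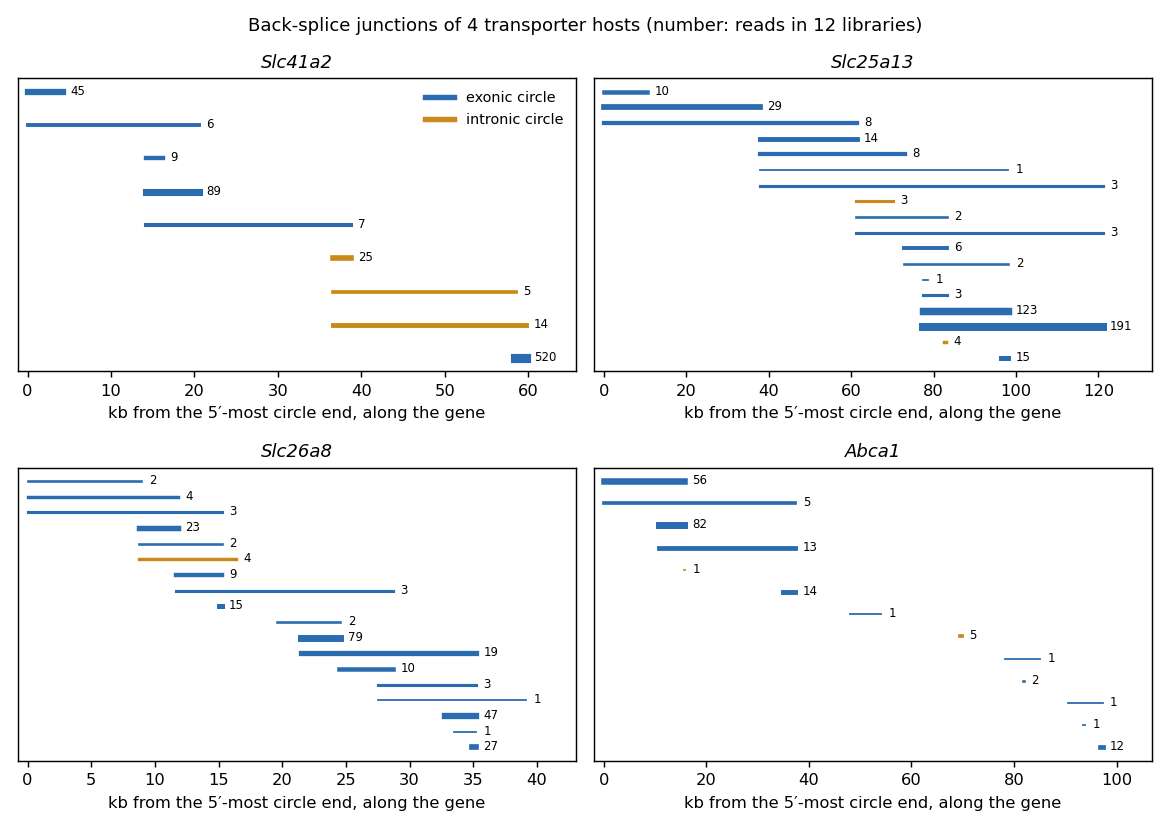
Back-splice junctions of Slc41a2, Slc25a13, Slc26a8 and Abca1, drawn along each gene in kb from the 5′-most circle end (x axis), 1 line per junction, thicker with more reads. The number beside each line is its reads over 12 libraries, and it shows 1 leading circle in Slc41a2 (520 reads), 2 in Slc25a13 (191 and 123) and in Abca1 (82 and 56), and many small ones in Slc26a8.

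Among metal ion carriers, 781 reads from 12 genes, Slc41a2 stood alone. It encodes a magnesium transporter and was the most abundant member, at 2495 ± 700.3 RPM (SD over 12 libraries). Its level was 2747, 2806, 2238, 2206 and 1859.7 RPM in the sham libraries, 2410.1, 4176, 2265, 3047 and 2123 RPM after sleeve gastrectomy, and 1353 and 2713 RPM in relapse. Sleeve gastrectomy 2 was the highest library and relapse 1 the lowest, and the groups overlapped. The leading circle, circRNA1022, holds exons 8 and 9 at chr7:26580673-26582088 (Rnor_6.0, plus strand) and gave 520 of the gene's 720 reads. The next, circRNA2540 with 3 exons at chr7:26536511-26542836, gave 89.

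Mitochondrial carriers, 19 genes with 920 reads, formed the largest role group by reads. Slc25a13 encodes citrin, the aspartate-glutamate carrier of liver mitochondria that serves the malate-aspartate shuttle and urea synthesis. Its circles stood at 1225, 1651, 1405, 953 and 2371 RPM in the sham libraries, at 1512, 1081, 1834, 1507 and 1096 RPM after sleeve gastrectomy, and at 1137 and 2015 RPM in relapse. No group lay apart. Of its 18 junctions, circRNA1449 (exons 7 to 14, chr4:31608270-31651720, minus strand, 191 reads) and circRNA1451 (exons 7 to 13, chr4:31631173-31651720, 123 reads) open at the same exon 7 and differ by 1 exon. The longer form gave 62.9% of their joint reads in the sham group, 62.8% after sleeve gastrectomy and 53.6% in relapse, while single libraries ran from 27.3 to 84.2%. Slc25a16, a mitochondrial carrier linked to coenzyme A, had 355 reads, and 98.0% of them lay in circRNA983 (exons 8 and 9, chr20:27278619-27279990, minus strand). Slc25a30, another carrier of the inner membrane, had 75 reads, of which 96.0% lay in 1 circle.

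Abcd3, an ABC transporter of the peroxisome membrane, had 83 reads on 11 junctions, and 94.0% of them were in identifier entries. Its leading circle, circRNA8116, with 3 exons at chr2:225365474-225371154 (minus strand), had 26 reads, all outside the relapse libraries. Against 3 reads over the relapse group, the sham level of that circle was 2.38-fold higher and the sleeve gastrectomy level 1.86-fold higher. Neither difference passed the test given further on, and the libraries overlapped. The circle is an identifier entry. Among values above 0, 4.17% were 1 read in member identifier entries, against 39.4% in member symbol entries. Low counts may thus be missing from identifier entries, which was not tested, so these folds are not lower bounds.

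Exporters of drugs, conjugates and bile, 11 ABC genes with 534 reads, were led by Abcc6, a hepatocyte protein whose loss lets soft tissue calcify. Abcc6 had 296 reads on 9 junctions, 177 of them on circRNA2016 (exons 3 to 8, chr1:101998891-102004187, minus strand). Abcb11, the bile salt export pump, showed the opposite pattern, 55 reads thinly spread over 21 junctions, the most of any member, with 20% in the leading one. Abcc4, a basolateral exporter of bile acids and cyclic nucleotides, had 76 reads, and 55.3% were on circRNA695 (exons 2 to 4). Abcb4 translocates phosphatidylcholine into bile, but the 16 junctions under its name spanned 239 kb in 3 transcripts. RefSeq (GRCr8) lists the close relatives Abcb1b and Abcb1a beside Abcb4, and no entry in the table used here had either name, so the gene behind each of these 57 reads is uncertain. Abcb11 and Slc25a30 were named after their values were seen, like Slco1a4.

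Lipid and sterol transporters of the ABC class held 307 reads, 194 of them in Abca1, which hands cholesterol to apolipoprotein A-I for nascent high-density lipoprotein. Its levels were 265, 935, 156, 1454 and 1255 RPM in the sham group, 331, 835, 809, 557 and 582 RPM after sleeve gastrectomy, and 541 and 725 RPM in relapse. The sham libraries alone covered the whole range of the other groups. Its leading circles share an end in exon 5: circRNA1275 holds exons 3 to 5 (chr5:69951195-69956147, minus strand, 82 reads) and circRNA4390 exons 2 to 5 (chr5:69951195-69966907, 56 reads). The form with exon 2 gave 34 of 71 joint reads in the sham group, 21 of 45 after sleeve gastrectomy and 1 of 22 in relapse. Between libraries that form ranged from 0 to 65.4% in the sham group and from 0 to 77.8% after sleeve gastrectomy. In relapse it gave 0 of 3 reads in relapse 1 and 1 of 19 in relapse 2, so the relapse value rested mostly on 1 library. ABC proteins without a transport function, which act on ribosomes, had 14 reads, 11 of them from Abce1.

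Organic anion, cation and bile salt carriers came from 15 genes with 584 reads. Slco1b2, the main hepatocyte uptake protein for organic anions in rat, led them at 762 ± 329 RPM (SD over 12 libraries), and circRNA1582 (exons 12 to 14, chr4:175866040-175873900, plus strand) gave 128 of its 212 reads. Its levels were 629, 770.2, 1666, 602 and 697 RPM in the sham libraries, 1134, 540.5, 485, 655 and 753 RPM after sleeve gastrectomy and 595 and 618 RPM in relapse. Sham 3 stood well above the others and the groups overlapped. Slco2a1, the prostaglandin transporter, had 114 reads, and 108 of them lay in 1 intronic entry, ciRNA228 (chr8:111533154-111542095, plus strand). Slco1a4 and Slco1a1, close relatives on chromosome 4 whose reads could be split between them, had 45 and 46 reads. The deposited table annotates 17 members with bile secretion. Together they had 653 reads, at 2216 ± 258 RPM in the sham group and 2527 ± 681 RPM after sleeve gastrectomy (SD, n = 5 each), and at 1895 and 1988 RPM in relapse.

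Carriers of sugars and amino acids were smaller. Slc2a2, the low-affinity glucose transporter of hepatocytes, had 108 reads, and 56 of them were in the intronic entry ciRNA656. Slc38a9, a lysosomal carrier that senses arginine, had 163 reads, and 93.9% lay in circRNA1793 (exons 7 to 10, chr2:44554762-44564131, plus strand). Slc13a4, a sulfate carrier, led the fatty acid, monocarboxylate, choline and vitamin carriers with 35 reads. Slc28a2, a concentrative nucleoside transporter, had 101 reads of which 96.0% were intronic. Its 4 intronic entries of over 100 kb held 87 reads, and the whole table had 20 such entries with 180 reads. The largest, ciRNA653, spanned 148 kb and had reads in 5 libraries. Whether these long entries are single circles was not tested.

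Ion exchangers and cotransporters held 515 reads from 17 genes. Slc26a8, an anion transporter best known from sperm, had 236 reads on 18 junctions, the leading one at 31.8%. It stood at 894, 990.3, 1457, 752 and 232 RPM in the sham group, at 1323, 98.3, 863, 852 and 788 RPM after sleeve gastrectomy, and at 1029 and 779 RPM in relapse. Sham 5 and sleeve gastrectomy 2 stood far below the other libraries of their groups, and the groups overlapped. Slc4a4, the electrogenic sodium bicarbonate cotransporter, had 165 reads, and 62.4% lay in circRNA740 (exons 3 and 4, chr14:20749846-20769564, minus strand). Slc18b1, a vesicular polyamine transporter, made up most of the remaining carriers with 239 reads, of which circRNA5158 (exons 3 to 5, chr1:22735615-22738713, minus strand) held 185.

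**Figure D3:**
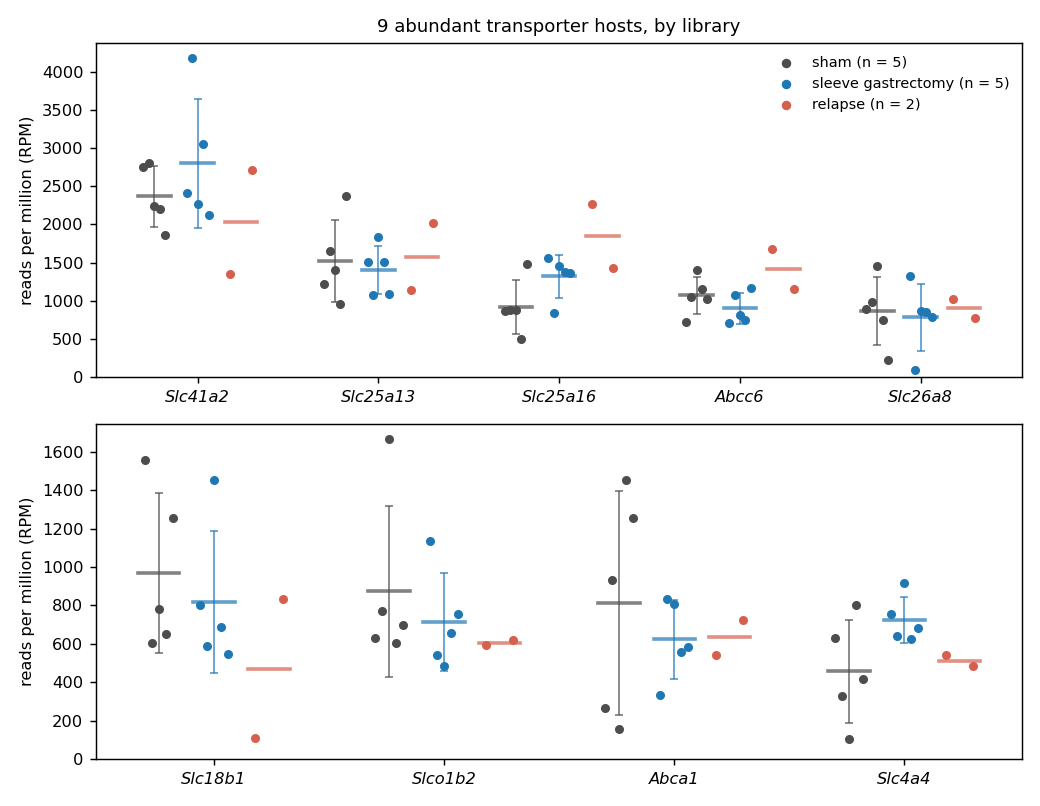
RPM (y axis) of 9 of the 10 most abundant transporter hosts (x axis), 1 point per library, with group means as lines and SD as bars where n = 5. The libraries of any 2 groups overlap in all 9, except those of relapse and sleeve gastrectomy in Slc4a4.

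The first comparison sets livers of rats made diabetic, 3 months after sleeve gastrectomy, against those after a sham operation. The sham sampling time is not given, so operation and time of sampling cannot be told apart. No transporter host passed the test: 0 of 31 members at a false discovery rate of 0.05 in edgeR's quasi-likelihood test with Benjamini-Hochberg adjustment over all 1368 tested hosts, where 2 hosts, 0.146%, were called. At an unadjusted p of 0.05, 0 members passed, where 45 of all tested hosts, 3.29%, did, and DESeq2 called 0 members. Fitted values were above 0 in 14 members and below in 17, with a median log2 difference of -0.11 against 0.03 over all tested hosts. Standard errors had a median of 0.76 on the log2 scale, so a change of the size of many members' fitted values was not detectable at this depth.

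The members with the smallest p are given by their libraries. Slc2a9, the urate transporter GLUT9, stood at 232, 110.04, 885, 602 and 46.5 RPM in sham and at 236, 0, 269.7, 65.5 and 68.5 RPM after sleeve gastrectomy. Sham 3 and 4 were the high libraries and the groups overlapped. Its log2 difference was -1.54 (SE 0.84, edgeR adjusted p = 0.994). Abcb4-named circles stood at 132, 0, 0, 150.4 and 139 RPM in sham and at 331, 197, 485, 295 and 103 RPM after sleeve gastrectomy, where 4 libraries lay above every sham library and 1 did not. The log2 difference was 1.61 (SE 0.89). Slc25a16 stood at 861, 880.3, 885, 501 and 1488 RPM in sham and at 1559, 835, 1456, 1376 and 1369.6 RPM after sleeve gastrectomy. Sham 5 and sleeve gastrectomy 2 were out of line with their groups, and the log2 difference was 0.52 (SE 0.31).

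Slc38a9 ran at 662, 330.1, 1301, 852 and 1069 RPM in sham and at 425, 0, 324, 950.2 and 205 RPM after sleeve gastrectomy. Its log2 difference was -1.05 (SE 0.65), with sleeve gastrectomy 4 inside the sham range, and -1.84 without that library. Slc4a4 ran at 629, 330.1, 104, 802 and 418 RPM in sham and at 756, 639, 917, 623 and 685 RPM after sleeve gastrectomy, a log2 difference of 0.63 (SE 0.43). Its operated libraries were all above the sham mean of 457 RPM, and 2 sham libraries reached into their range. Slc2a2 averaged 473 ± 287 RPM in sham and 314 ± 196 RPM after sleeve gastrectomy (SD, n = 5 each), at -0.64 (SE 0.56). Slc29a1, the equilibrative nucleoside transporter, averaged 79.1 ± 79.5 and 188 ± 162 RPM in the same order, at 1.14 (SE 1.02). The edgeR adjusted p of each of these members was 0.994. Some values rested on 1 library: Slc2a9 was at -0.97 and Slc4a4 at 0.38 without sham 3, Slc2a2 at -0.37 without sham 2 and at -0.98 without sleeve gastrectomy 3, and Slc29a1 at 0.71 without sleeve gastrectomy 2. No member had groups that did not overlap, 0 of 31, where 0.950% of all tested hosts had.

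**Figure D4:**
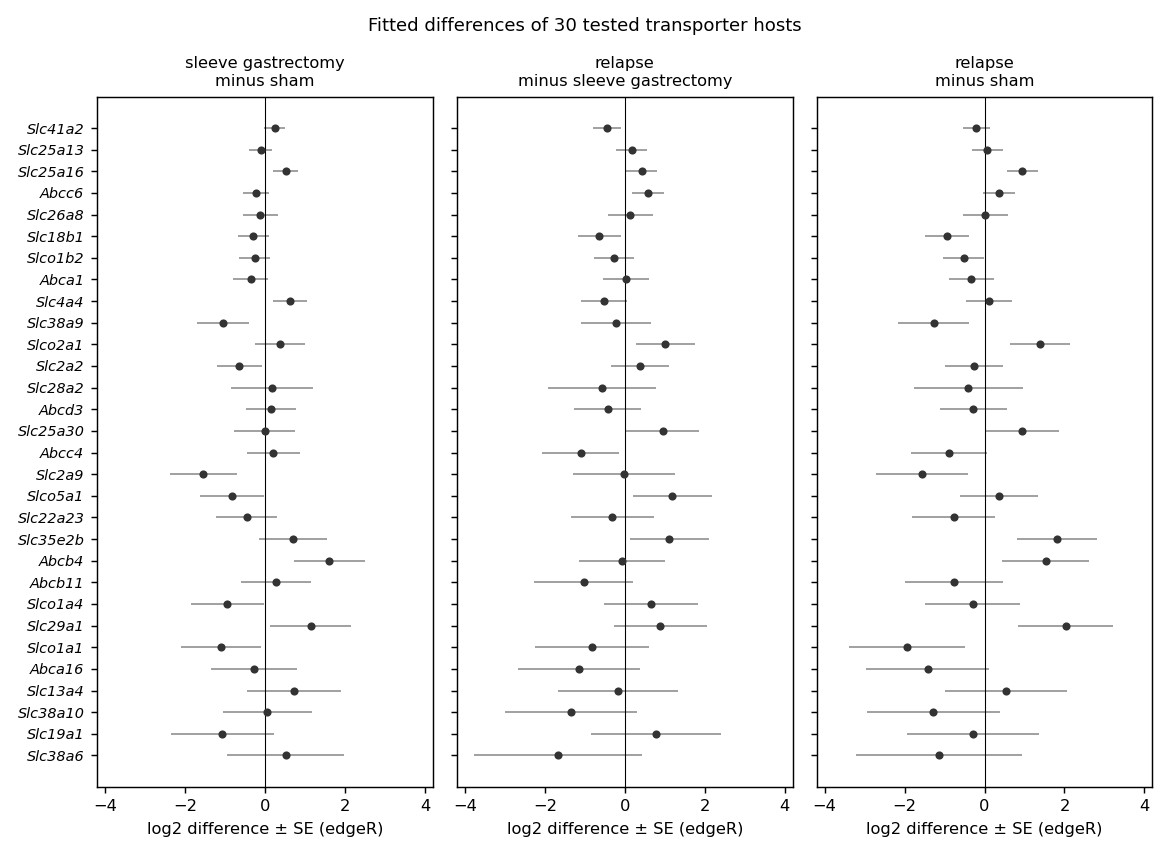
Fitted log2 differences ± SE (x axis, edgeR) of 30 of the 31 tested transporter hosts (y axis, most abundant on top) in the 3 comparisons. Points lie on both sides of 0 and none passed a false discovery rate of 0.05.

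The second comparison sets the 2 relapse libraries against sleeve gastrectomy, and so asks which circles differ where diabetes returned. The relapse sampling time is not given, so return of diabetes and time of sampling cannot be told apart. Again 0 of 31 members passed in edgeR, with 2 hosts or 0.146% called in all, and DESeq2 called 0 members. At an unadjusted p of 0.05, 0 members passed, where 56 of all tested hosts, 4.09%, did. The median log2 difference was -0.07 for members and -0.07 for all tested hosts. Abcc6 stood at 709, 1081, 809, 754 and 1164 RPM after sleeve gastrectomy and at 1678 and 1155 RPM in relapse. Both relapse libraries were in the upper part and relapse 2 was just inside the other group's range, for 0.59 (SE 0.40, edgeR adjusted p = 1.0). Slco2a1 stood at 0, 786, 593, 229 and 308 RPM after sleeve gastrectomy and at 1029 and 564 RPM in relapse, for 1.01 (SE 0.74).

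Further values in this comparison were carried by 1 relapse library or by few reads. Slc41a2 had a log2 difference of -0.45 (SE 0.35), which was 0.08 without relapse 1, -1.19 without relapse 2 and -0.27 without sleeve gastrectomy 2. Slc18b1 ran at 803, 589.6, 1456, 688 and 548 RPM after sleeve gastrectomy and at 108 and 833 RPM in relapse. Its log2 difference was -0.64 (SE 0.54), with 0.17 without relapse 1, -2.97 without relapse 2 and -0.37 without sleeve gastrectomy 3. Slc35e2b, an orphan relative of the nucleotide sugar carriers, stood at 217 and 672 RPM in relapse, with 1.11 (SE 0.99), which was 1.78 without relapse 1 and -0.09 without relapse 2. Slco5a1, of the organic anion polypeptide family, gave 1.19 (SE 0.98), with 1.89 without sleeve gastrectomy 5 and 0.74 without relapse 2. Abcc4 gave -1.10 (SE 0.96), with -0.60 without sleeve gastrectomy 1. All had an edgeR adjusted p of 1.0. The groups did not overlap in 1 of 31 members, where 9.72% of all tested hosts had such groups. That member was Slc4a4, at 541 and 483 RPM in relapse and 623 RPM or more after sleeve gastrectomy.

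The third comparison sets relapse against sham, which shares the relapse libraries with the second and the sham libraries with the first. The sampling time of neither group is given, so group and time of sampling cannot be told apart here. In edgeR 0 of 31 members passed, where 1 host or 0.0731% was called, and DESeq2 called 0 members. At an unadjusted p of 0.05 there was 1 member of 31 (3.23%), Slc25a16, where 76 of all tested hosts, 5.56%, passed, so the members' share was no higher than that of all hosts. Its relapse libraries stood at 2274 and 1424 RPM, the higher above all other libraries and the lower just under sham 5 at 1488 RPM. The log2 difference was 0.94 (SE 0.39, unadjusted p = 0.0192, edgeR adjusted p = 0.816). In the first 2 comparisons the same gene had 0.52 (SE 0.31) and 0.42 (SE 0.39).

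The other members with small p were lower in reads. Slco2a1 stood at 132, 330.1, 104, 150.4 and 744 RPM in sham and differed from relapse by 1.38 (SE 0.75, edgeR adjusted p = 0.856). Slc35e2b stood at 132, 0, 104, 251 and 139 RPM in sham, for 1.81 (SE 1.0, adjusted p = 0.856). Only relapse 2 lay above every sham library for it. Slc18b1 had 1556, 605, 781, 652 and 1255 RPM in sham, for -0.93 (SE 0.55, adjusted p = 0.865). Slc29a1 had 99.3, 110.04, 0, 0 and 186 RPM in sham and 325 and 376 RPM in relapse, for 2.03 (SE 1.19, adjusted p = 0.865), with no overlap between these groups. Abcb4-named circles reached 271 and 269 RPM in relapse, above all sham libraries, for 1.53 (SE 1.09), and Slc38a9 stood at 54.1 and 564 RPM, for -1.27 (SE 0.89). Slc2a9 had 108 and 134 RPM in relapse, for -1.56 (SE 1.15). These 3 had an edgeR adjusted p of 0.967. Without relapse 1 the values of Slc18b1 and Slc38a9 were -0.11 and -0.43, and without relapse 2 they were -3.25 and -3.94. Slc35e2b was at 0.62 without relapse 2, Slco2a1 at 2.08 without sham 5 and Slc2a9 at -1.0 without sham 3, and none of these was called. Groups did not overlap in 3 of 31 members, Slc29a1 and Abcb4 higher and Abcc4 lower in relapse, against 10% of all tested hosts. Abcc4 stood at 331, 220.1, 312, 201 and 279 RPM in sham and at 162 and 134 RPM in relapse.

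**Figure D5:**
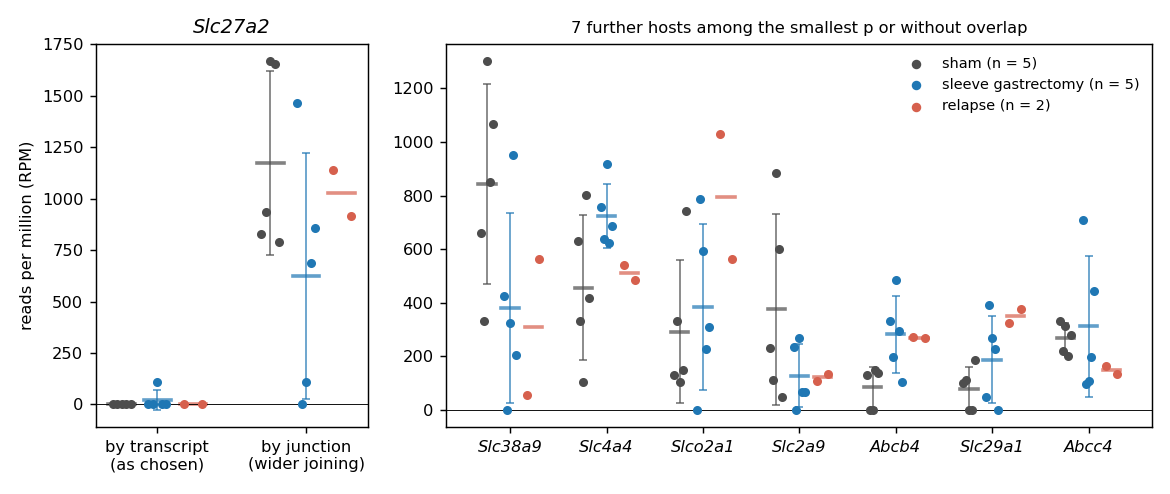
RPM (y axis) by library for Slc27a2 under both ways of joining table entries (left) and for 7 further hosts (right), with group means as lines and SD as bars where n = 5. Slc27a2 goes from 2 reads to 258 when both entries of its junction are summed, and the right panel shows Slc29a1, Abcb4 and Abcc4 with relapse outside the sham range.

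Single junctions were tested too, 34 of members among 1520. In edgeR 0 members passed in each comparison, and over all junctions 0 (0%) were called. At an unadjusted p of 0.05, 0 member junctions passed after sleeve gastrectomy against sham (3.88% of all junctions did) and 0 in relapse against sleeve gastrectomy (4.87% of all). In relapse against sham 2 of 34 passed, 5.88%, which is the background of 5.86% over all junctions: circRNA983 of Slc25a16 (log2 difference 1.01, SE 0.39, edgeR adjusted p = 0.703) and circRNA4390 of Abca1 (-3.84, SE 1.59, adjusted p = 0.703). The Slc25a16 circle had 26, 16, 17, 10 and 29 reads in sham, 33, 15, 27, 42 and 39 after sleeve gastrectomy, and 41 and 53 in relapse. The Abca1 circle had 2, 7, 0, 8 and 17 reads in sham, 0, 1, 7, 7 and 6 after sleeve gastrectomy and 0 and 1 in relapse, so low counts occurred in every group. Next by p was circRNA11639 of Slco1a1 (exons 5 to 7, chr4:176197187-176200949, minus strand, 30 reads), with no read in relapse. Its pooled sham level was 3.75-fold above 3 reads over the relapse group, a bound for counting error only (edgeR adjusted p = 0.827). The sham and relapse libraries overlapped, and sham 3 had no read of Slco1a1.

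Against sleeve gastrectomy, 3 relapse circles had the smallest p, at an edgeR adjusted p of 0.999. Lower in relapse were circRNA4390 of Abca1 (-2.99, SE 1.59) and circRNA8116 of Abcd3, which had no read there. Higher in relapse was circRNA1828 of Slc2a2 (exons 6 and 7, chr2:114435523-114436496, plus strand, 2.47, SE 1.55). The intronic ciRNA656 of Slc2a2 went the other way, at -1.79 (SE 1.44). After sleeve gastrectomy against sham the leading circles of Slc25a16 and Slc38a9 had the smallest p, at 0.55 (SE 0.31) and -1.09 (SE 0.67), with an adjusted p of 0.995. Slc18b1's circRNA5158 had 0 reads in relapse 1 and 26 in relapse 2. With relapse 2 left out, its pooled levels after sleeve gastrectomy and in sham were 4.01-fold and 4.57-fold above 3 reads in relapse 1. With relapse 1 left out its log2 differences were 0.13 against sleeve gastrectomy and 0.10 against sham. The 0 reads of relapse 1 allow up to 162 RPM, against pooled levels of 651 RPM after sleeve gastrectomy and 743 RPM in sham.

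How the table names its entries set the value of 1 member. By the shared transcript, Slc27a2, an acyl-CoA synthetase for very long-chain fatty acids, had 2 reads, both in sleeve gastrectomy 3. The same back-splice junction, chr3:119024716-119028193 (plus strand, exons 2 to 10), was also listed as circRNA2971 under an Ensembl identifier and another transcript, with 256 reads. Summed, the junction had 25, 17, 32, 33 and 17 reads in sham, 31, 0, 2, 21 and 25 after sleeve gastrectomy, and 21 and 34 in relapse. That made it the fourth most abundant junction among the members' junctions. Sleeve gastrectomy 2 and 3 were near 0 and all other libraries had 17 reads or more. Most of these reads lie in an identifier entry, where values of 1 read were rare, so a 0 may hide reads. On host level it then stood at 1175 ± 446 RPM in sham and 623 ± 596 RPM after sleeve gastrectomy (SD, n = 5 each), with a log2 difference of -0.84 (SE 0.66, edgeR adjusted p = 0.994). Relapse stood at 1137 and 913 RPM and differed from sleeve gastrectomy by 0.66 (SE 0.84) and from sham by -0.17 (SE 0.85).

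In all, 13 member junctions were also written as an entry outside the rule, with 306 reads, and no library had reads in both entries of a pair. Joining by gene identifier or junction as well added 16 entries and 328 reads in 8 genes. Slc26a8 went from 236 to 256 reads, Slco1b2 from 212 to 227, Slc4a4 from 165 to 187, Slco2a1 from 114 to 118 and Slc2a9 from 60 to 66. Slco2a1 in relapse against sham was then at 1.60 (SE 0.72, unadjusted p = 0.0318, edgeR adjusted p = 0.786), and Slc2a9 after sleeve gastrectomy against sham at -1.22 (SE 0.77). The relapse and sleeve gastrectomy libraries of Slc4a4 still did not overlap, at 541 and 483 RPM against 685 RPM or more.

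Of 10 roles with 2 or more tested members, fitted values all lay on 1 side of 0 in 3 after sleeve gastrectomy against sham, in 2 in relapse against sleeve gastrectomy and in 5 in relapse against sham. Over all tested hosts 51.5, 46.2 and 46.6% of fitted values were above 0 in these comparisons. Most of these roles had 2 or 3 tested members, where signs on 1 side arise often at random. The directions below were not tested. After sleeve gastrectomy the nucleoside carriers were above 0, and the sugar carriers and ABC lipid transporters below. The latter groups were also below 0 in relapse against sham, where the ion exchangers were barely above. Among these, Slc4a4 was at 0.11 (SE 0.57) and Slc26a8 at 0.02 (SE 0.57). With wider joining of names they were at -0.06 (SE 0.54) and 0.13 (SE 0.49), so the shared side did not hold. The 3 tested mitochondrial carriers, Slc25a13, Slc25a16 and Slc25a30, were all above 0 in relapse against both other groups, comparisons that share the relapse libraries. Slc25a13 was at only 0.17 (SE 0.38) against sleeve gastrectomy and 0.07 (SE 0.38) against sham. The role group summed to 3952 and 3975 RPM in relapse, 2251 to 4138 RPM in sham and 2358 to 3829 RPM after sleeve gastrectomy. None of the 3 passed the test. The 3 tested amino acid carriers, Slc38a6, Slc38a9 and Slc38a10, were below 0 in relapse against both groups, with a role sum of 271 and 1128 RPM in relapse, 935 to 1769.7 RPM in sham and 756 to 1704 RPM after sleeve gastrectomy, so that relapse 2 lay inside both ranges. Slc38a6 and Slc38a10 were named after their values were seen. Of the 6 tested organic anion carriers 5 were below 0 after sleeve gastrectomy, and their role group summed to 2276 ± 326 RPM in sham and 1804 ± 249 RPM after sleeve gastrectomy (SD, n = 5 each), with overlapping libraries.

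Other genes of hepatic transport that are no members were counted beside them: 69 pumps, channels, lipid handling proteins, major facilitator proteins and nuclear receptors. Of these 45 had circRNA reads, 12 were tested and edgeR called 0 in each comparison. At an unadjusted p of 0.05 the receptor gene Ppara was the only one, after sleeve gastrectomy against sham and in relapse against sham.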

How the data were processed

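Back-splice junction reads were measured in 12 rat liver libraries, per the labels after ribosomal RNA depletion and RNase R digestion and with paired-end sequencing. The submitters' processing notes name cutadapt 1.9, FastQC, TopHat2 2.0.10 and the build Rnor_6.0, and how back-splice reads were called is not given in the sources used here. The table deposited by the authors gives, per circRNA and library, a whole-number count of back-splice reads and SRPBM, a normalised signal. Within each library SRPBM was the count times 1 constant (0.151 to 0.178), which did not follow the library's back-splice total, so the authors' signal was used only in an added alternative. Coordinates were put on a count from 1, since symbol entries of exonic circles start from 0. Starts of intronic entries are as deposited.

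Counts of all entries of a host were summed, identifiers being joined to a symbol through a shared transcript name, and junctions were summed over entries. Tests used edgeR 4.0.16 in R 4.3.3: filterByExpr with minimum count 5 and minimum total 15, TMM, a single fit of the 3 group means, the robust quasi-likelihood F-test and Benjamini-Hochberg adjustment at 0.05 over all 1368 hosts or 1520 junctions. SE is the log2 difference divided by the root of F. RPM are reads-per-million of all back-splice reads, without TMM. Depth was 18176 to 37229 reads per library, and intervals and floors (3 reads) cover counting error only, since PCR reads were not marked as molecules. Columns of no mapped sample numbered 0.

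The members, role lists and marker lists were chosen with earlier results of these data known. Named are members past the threshold, the 8 member hosts and 3 member junctions with the smallest p per comparison, the 10 most abundant member hosts, the leading host of each role, the 8 most abundant member junctions and the leading junction of abundant hosts. One host that this rule names is not reported here. Other names are said to be chosen after their values were seen. Alternatives were DESeq2 1.42.0, RLE size factors, no filter, 2 groups alone, symbol entries alone, host names as written, the replicate number as a block, and each library left out. After the data were seen, wider joining of names and library sizes from SRPBM were added. Samples with the same replicate number showed no shared deviation at these counts, and the numbers were not used as pairs.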

Additional observations from a re-analysis of the deposited data

Results flagged for a closer look

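In 40 groups of 5 libraries, covering the 19 named hosts and the share of reads, the gap between an extreme library and the next was set against the whole range. In 3 groups it took more than 0.71 of that range, and chance alone flags about 1 in 20 groups. Slco1b2 stood at 1666 RPM in sham 3, where the other sham libraries held 602 to 770.2 RPM. Slc25a16 stood at 835 RPM in sleeve gastrectomy 2, where the others held 1369.6 to 1559 RPM. Slc18b1 stood at 1456 RPM in sleeve gastrectomy 3, where the others held 548 to 803 RPM.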

How the results depend on the processing

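Under every alternative run, 0 transporter hosts were called in the 3 comparisons. Over all hosts, 2 were called after sleeve gastrectomy against sham, and 0 with DESeq2, with 2 groups alone, with names as written, with library sizes from SRPBM and with the replicate block, 1 with no filter and with symbol entries alone, and 0 to 3 with a library left out. For relapse against sleeve gastrectomy the count was 2, and 0 with 2 groups alone, symbol entries alone, names as written and the replicate block, 1 with wider joining and with SRPBM sizes, 3 with no filter, and 0 to 4 with a library left out. For relapse against sham it was 1, and 2 with RLE, 3 with no filter and with wider joining, 0 with 2 groups alone and the replicate block, and 0 to 4 with a library left out. Samples of the same replicate number had correlations of -0.07 to 0.02 over 9 pairs, and other pairs of -0.11 to 0.10. No shared deviation was thus seen, but low counts could hide one, so pairing was not excluded. Transporter junctions called were 0 in every run that kept both relapse libraries. With relapse 2 left out, circRNA5158 of Slc18b1 moved as given above, on the 0 reads of relapse 1. The cause of these shifts was not tested. The transporter share was with symbol entries alone 2.32% (sham), 2.15% (sleeve gastrectomy) and 2.25% (relapse), taken of their own reads, and 2.05% in sham with wider joining. Of 401 values of named hosts under alternatives, 398 kept their direction and side of the threshold, with a smallest adjusted p of 0.110. The 3 that changed direction were relapse against sleeve gastrectomy, and they ranged from -1.19 to 0.08 for Slc41a2, from -2.97 to 0.17 for Slc18b1 and from -0.09 to 1.78 for Slc35e2b with a relapse library left out. With 1 relapse library left, that library was assumed to vary like the other groups. Depth limits the tests: 103 of the 146 genes had under 15 reads.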
